A study of Homo sapiens with 12 samples.

Results

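The transcripts of 10 glycolytic enzymes were followed in RCC4 cells after silencing of MESH1, a gene that annotations list as HDDC3. The 10 genes, HK2, GPI, PFKP, ALDOA, TPI1, GAPDH, PGK1, ENO1, PKM and LDHA, were taken by symbol from count tables of 23710 genes, and each had 1 matching entry. RCC4 is an established line of human clear cell renal carcinoma that lacks working VHL. The medium was DMEM, with glucose at 4.5 g/L, glutamine at 4 mM and serum at 10%. Each transfection used 40 pmol of siRNA, and RNA was taken 72 h later. Experiment 1 held 3 libraries of siMESH1-CDS and 3 of a non-targeting siRNA (siNT), and experiment 2 held 3 libraries of siMESH1-7002 and 3 of its own siNT. The libraries of experiment 1 ran on lanes 4 to 7 and those of experiment 2 all on lane 2. The libraries of a group are labelled as biological replicates, and nothing more is said of how their cultures were kept apart. Transfection was transient, in a single cell line.

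Glycolysis breaks glucose down to pyruvate in the cytosol and yields ATP and NADH, and lactate dehydrogenase turns pyruvate into lactate, which restores NAD+. Hypoxia-inducible factors raise the transcription of most of these enzymes, and cells without VHL keep those factors when oxygen is plentiful, so clear cell renal carcinoma is known for high glycolysis. MESH1 is a phosphatase of NADPH, a cofactor that the pentose phosphate branch of glucose use regenerates. The comparison addressed here is how far each siRNA against MESH1 changed the transcripts of the pathway relative to its own siNT.

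The sequences below give the target of each siRNA in HDDC3. The targets differ, and the part of this in the response of the enzymes was not tested. Both targets lie on the minus strand of chromosome 15 in GRCh38. The target of siMESH1-CDS is in the coding sequence of exon 2, at chr15:90932064-90932082, and that of siMESH1-7002 is in the 3'UTR in exon 4, at chr15:90931109-90931129. In the guide strands, capitals mark the seed (bases 2 to 8).
siMESH1-CDS target: gggaaucacugacauugug
siMESH1-CDS guide: cACAATGTcagtgattccc
siMESH1-7002 target: ctgaaggtctcctgctaacta
siMESH1-7002 guide: tAGTTAGCaggagaccttcag
Among the 10 enzymes, PGK1 was the 1 gene whose 3'UTR held a match to a seed, that of siMESH1-CDS, at base 610 of 3466 in GENCODE 29. The match is in capitals.
PGK1 3'UTR: tatggcagACATTGTgctagtgc
A match of this kind is a description of letters and does not show binding.

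HDDC3 was low with both siRNAs. In experiment 1 it had 438, 292 and 361 reads with siNT and 5, 0 and 11 reads with siMESH1-CDS, which is 7.48 ± 0.913 against 0.158 ± 0.158 CPM (SD, n = 3; a gene's reads scaled to the size of its library). In experiment 2 it had 442, 326 and 358 reads with siNT and 36, 35 and 52 with siMESH1-7002, or 13.2 ± 0.63 against 1.38 ± 0.291 CPM. No siMESH1 library reached the level of any siNT library. The log2 change was -5.56 (SE 0.823, adjusted p = 0.00174) with siMESH1-CDS and -3.25 (SE 0.129, adjusted p = 2.51e-12) with siMESH1-7002.

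Libraries held 34063155 to 49134129 reads in genes in experiment 1 and 24787804 to 31651125 in experiment 2, and the lowest count of any of the 10 enzymes was 222 reads. Spread between replicates differed far more than depth. edgeR's estimate of the coefficient of variation between replicates was 0.299 for experiment 1 against 0.049 for experiment 2, and the siMESH1-CDS libraries differed from each other (chi-square per degree of freedom 68.9 to 291) more than the siNT libraries beside them (3.82 to 15.8). Of 9 renal epithelial markers, 8 were detected and LRP2 was at 0 reads in all libraries. PAX8 stood at 150.2 to 183 CPM with siNT in experiment 1 and at 403 to 479 in experiment 2. Of 8 markers of other cell types, CD68 alone passed the filter, and PTPRC, CD3E, PECAM1 and CDH5 had at most 2 reads in any library. Of the renal markers, 6 of 8 fell with siMESH1-CDS and 4 of 8 with siMESH1-7002, beside 37.2% and 26.7% of all genes. With a correction for the GC content of transcripts, 4 renal markers were higher and 2 lower with siMESH1-CDS, and 3 higher and 2 lower with siMESH1-7002. Over all genes, that correction gave 40.1% higher and 26.7% lower with siMESH1-CDS, and 39.4% and 23.5% with siMESH1-7002. CD68 had 45.1 to 62.4 CPM with siNT against 1.09 to 7.39 with siMESH1-CDS, and 104 to 106 CPM with siNT against 136 to 146 with siMESH1-7002. Their part in the enzymes' changes was not tested.

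The glycolytic transcripts changed very differently in the 2 comparisons, which differ in siRNA, experiment, lanes and siNT libraries. With siMESH1-CDS, 9 of 10 enzymes fell, LDHA did not pass the test, and the median change was -2.74 on the log2 scale. The share of all 13395 tested genes called lower in this comparison was 37.2%, and the median change over all of them was -0.047. With siMESH1-7002, 7 of 10 enzymes fell and the median change was -0.22. None rose in edgeR or DESeq2, and GAPDH alone was higher at an unadjusted p under 0.05. There, 26.7% of 13568 tested genes were called lower and the median over all was 0.005. In a fit of all 4 groups, which gives both experiments the same estimate of spread, HK2 was the 1 enzyme called lower with siMESH1-7002. The 7 enzymes lower with siMESH1-7002 are a subset of the 9 lower with siMESH1-CDS, and 15.1% of the 12824 genes tested in both were lower with each siRNA.

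Summed over the 10 enzymes, experiment 1 gave 14673, 13049 and 14337 CPM with siNT and 4678, 3907 and 5320 CPM with siMESH1-CDS. In experiment 2 the sums were 18069, 17973 and 17552 CPM with siNT and 17266, 17115 and 16767 CPM with siMESH1-7002. The sums did not overlap between groups in either experiment, but the gap was wide in the first and narrow in the second. As shares of reads in genes, the enzymes took 1.45% to 1.59% with siNT and 0.331% to 0.512% with siMESH1-CDS. LDHA alone made up 21.7% to 24.3% of the enzymes' reads with siNT and 56.2% to 80.3% with siMESH1-CDS. In bulk libraries, fewer cells rich in these transcripts and less of them in each cell cannot be told apart.

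**Figure D1:**
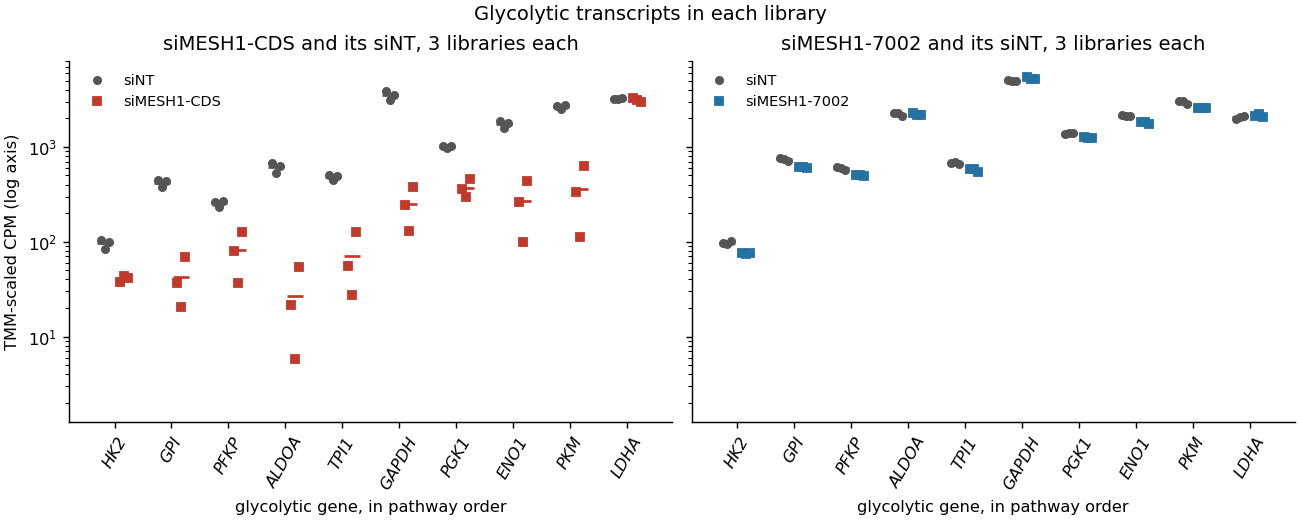
TMM-scaled CPM (log axis) of the 10 glycolytic genes in each of the 12 libraries, in pathway order; circles are siNT, squares are siMESH1, and short lines are the mean of 3 libraries. With siMESH1-CDS 9 genes sit below all of their siNT libraries and LDHA overlaps them, whereas with siMESH1-7002 the 2 groups lie close together for every gene.

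The upper part of the pathway spends ATP to trap and split the sugar. HK2 (chr2:74833981-74893359, GRCh38), the inducible hexokinase of tumours that phosphorylates glucose on entry, stood at 104, 84.7 and 100.3 CPM with siNT and at 37.4, 43 and 41.7 with siMESH1-CDS. It was the enzyme whose siMESH1-CDS libraries differed least, apart from LDHA, and it fell by 1.24 on the log2 scale (SE 0.12, adjusted p = 0.0005). In experiment 2 it went from 97.8, 95.1 and 101 CPM to 75.7, 74 and 77, with no overlap. That change of -0.37 (SE 0.0489, adjusted p = 6.86e-06) was the lowest of the 10 with siMESH1-7002.

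GPI (chr19:34359480-34402413), the isomerase that makes fructose phosphate, had 445, 381 and 433 CPM with siNT and 36.9, 20.4 and 69.7 with siMESH1-CDS. Its mean fell to 10.1% of siNT, a log2 change of -3.31 (SE 0.459, adjusted p = 0.00141). With siMESH1-7002 it went from 757, 741 and 716 CPM to 618, 617 and 604, a change of -0.27 (SE 0.0397, adjusted p = 2.58e-05).

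PFKP (chr10:3066333-3137712), the platelet form of phosphofructokinase and a point of control of the pathway, had 265, 234 and 266 CPM with siNT and 79.6, 36.5 and 126 with siMESH1-CDS. The fall of 1.66 (SE 0.427, adjusted p = 0.0137) was the least certain of the 9. With siMESH1-7002 it went from 621, 603 and 565 CPM to 503, 501 and 494, a change of -0.26 (SE 0.0431, adjusted p = 9.47e-05).

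ALDOA (chr16:30064164-30070457), the aldolase that splits the sugar, gave the largest contrast between the siRNAs. It had 679, 529 and 629 CPM with siNT and 21.4, 5.77 and 53.9 with siMESH1-CDS, so that 4.41% of its siNT level was left. The log2 change of -4.50 (SE 0.816, adjusted p = 0.00363) was the most negative among the 10. In experiment 2 the groups overlapped, with 2294, 2270 and 2099 CPM against 2264, 2198 and 2166, and the change was -0.01 (SE 0.0423, adjusted p = 0.894).

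TPI1 (chr12:6867119-6870948) interconverts the products of aldolase. Its level went from 503, 445 and 494 CPM to 55.8, 27.5 and 128 with siMESH1-CDS, a change of -2.77 (SE 0.555, adjusted p = 0.00528). With siMESH1-7002 it went from 673, 689 and 661 CPM to 586, 579 and 545, a change of -0.24 (SE 0.042, adjusted p = 0.000123). Its pseudogenes TPI1P2 and TPI1P3 together held few reads (0.827% and 0.142% of those of TPI1), and reads that map to several places were set aside, so the count may miss some TPI1 reads.

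The lower part of the pathway recovers ATP and NADH. GAPDH (chr12:6533927-6538374), the dehydrogenase that is often used as a reference transcript, had 3883, 3119 and 3568 CPM with siNT and 242, 130.5 and 382 with siMESH1-CDS. Its mean was 7.14% of siNT, a change of -3.81 (SE 0.418, adjusted p = 0.000674). With siMESH1-7002 all of its libraries were above siNT, at 5405, 5240 and 5215 CPM against 5107, 4973 and 4921, but the change of 0.08 (SE 0.0368) missed the threshold (adjusted p = 0.0766).

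PGK1 (chrX:77910739-78129296), the kinase of the first ATP-yielding step, had 1024, 980 and 1029 CPM with siNT and 356, 293 and 464 with siMESH1-CDS. It fell by 1.45 (SE 0.177, adjusted p = 0.000949). With siMESH1-7002 it went from 1363, 1399 and 1411 CPM to 1266, 1258 and 1252, and the change of -0.14 (SE 0.0376, adjusted p = 0.00383) was the smallest of the 7 that passed.

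ENO1 (chr1:8861000-8879250), the main enolase, had 1860, 1598 and 1773 CPM with siNT and 260.0, 100 and 440.0 with siMESH1-CDS, a change of -2.71 (SE 0.522, adjusted p = 0.00459). In experiment 2 it went from 2164, 2109 and 2098 CPM to 1822, 1813 and 1766, a change of -0.24 (SE 0.0375, adjusted p = 4.91e-05). Its siMESH1-CDS libraries spanned more than 4-fold, while those of siMESH1-7002 lay within a few percent.

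PKM (chr15:72199029-72231822) encodes pyruvate kinase, and a gene count sums its splice forms, which these files do not separate. It had 2724, 2512 and 2746 CPM with siNT and 338, 111 and 624 with siMESH1-CDS, a change of -2.90 (SE 0.602, adjusted p = 0.00609). With siMESH1-7002 it went from 3024, 3022 and 2867 CPM to 2599, 2595 and 2555, a change of -0.20 (SE 0.0381, adjusted p = 0.000285).

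LDHA (chr11:18394388-18408425), the lactate dehydrogenase subunit that favours lactate formation, stood apart from the others. It had 3186, 3167 and 3299 CPM with siNT and 3250, 3139 and 2990 with siMESH1-CDS, and the groups overlapped. The change was -0.04 (SE 0.0931, adjusted p = 0.7). Scaling by library size (-0.31, where all genes had a median of -0.31), a minimum of 10 reads in every library (-0.23, median of all genes 0) and the fit of all 4 groups (-0.20, median of all genes -0.275) each called it lower. With siMESH1-7002 it had 2127, 2240 and 2094 CPM against 1969, 2070 and 2112 with siNT, again with overlap, and the change was 0.07 (SE 0.0417, adjusted p = 0.165). Without siNT-7002 replicate 3 it was 0.09 and passed.

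**Figure D2:**
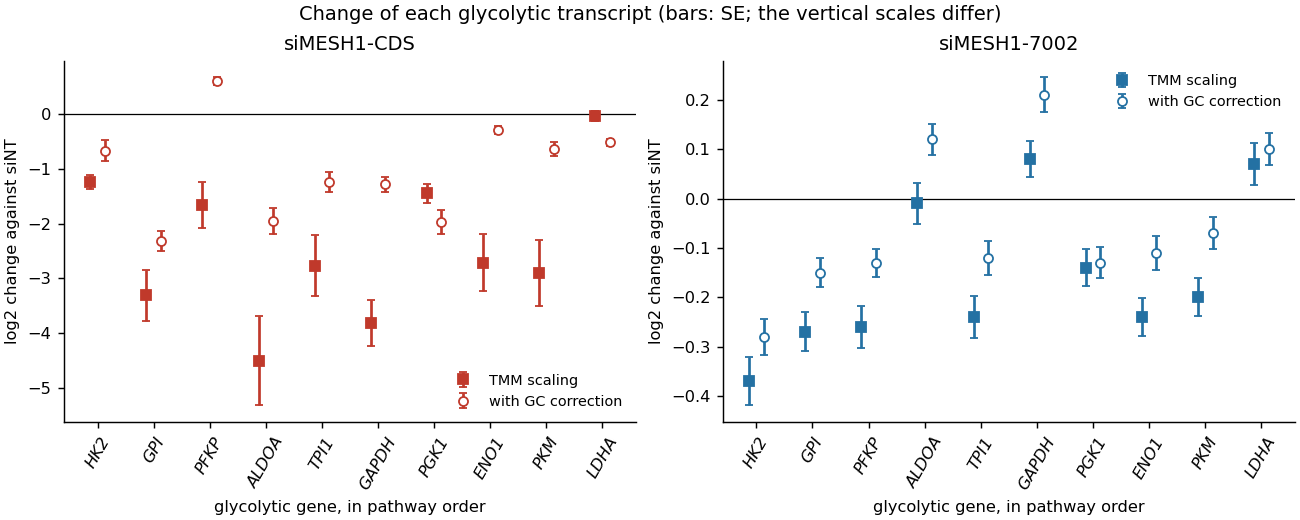
Log2 change against siNT of the 10 glycolytic genes with siMESH1-CDS (left) and siMESH1-7002 (right), on vertical scales that differ; squares use TMM scaling, open circles add the GC correction, and bars are SE. With siMESH1-CDS the squares run from -4.50 for ALDOA to -0.04 for LDHA, and with the correction PFKP moves from -1.66 to 0.60; with siMESH1-7002 the squares run from -0.37 to 0.08.

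Measured by overlap of the libraries rather than by the model, 9 of 10 enzymes had all siMESH1-CDS libraries below all siNT libraries, beside 42.5% of all tested genes. With siMESH1-7002 the count was 7, beside 29.9% of all tested genes. Of the 3 siMESH1-CDS libraries, replicate 2 was the lowest and replicate 3 the highest for GPI, PFKP, ALDOA, TPI1, GAPDH, PGK1, ENO1 and PKM. Without replicate 2 the median change of the 10 was -2.33, and without replicate 3 it was -3.42, and 9 enzymes remained called lower each time. Lanes 4 and 6 each held 1 siNT and 1 siMESH1-CDS library. Within lane 4 the log2 ratios ran from -3.66 (ALDOA) to -0.09 (LDHA), and within lane 6 from -4.88 (ALDOA) to -0.02 (LDHA), so all 10 were negative within each lane.

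The order of the levels was read per kilobase of the principal transcript, since longer transcripts gather more reads. With siNT in experiment 1, GAPDH led with 1879 ± 205 CPM per kilobase (SD, n = 3), followed by LDHA at 1332 ± 29.6, PKM at 979 ± 47.6 and ENO1 at 743 ± 56.8. TPI1 (391 ± 25.3) and ALDOA (382 ± 47.7) overlapped, as did GPI (100 ± 8.1) and PFKP (96.1 ± 6.73). HK2 was last at 16.7 ± 1.75. After siMESH1-CDS, LDHA came first at 1294 ± 54.1 CPM per kilobase, GAPDH second at 134 ± 67.3, and every neighbour from GAPDH down to HK2 overlapped the next. With siNT in experiment 2, GAPDH led at 2667 ± 51.2 and ALDOA came second at 1386 ± 66.5, ahead of PKM, ENO1 and LDHA (849 ± 30.4). After siMESH1-7002 that order held except that LDHA (891 ± 31.9) passed ENO1 (768 ± 12.9).

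The siNT levels themselves differed between the experiments. ALDOA was 3.63 times as high in experiment 2 as in experiment 1, PFKP 2.34 times and LDHA 0.637 times, while HK2 was level (1.02). Low alignment quality had removed 6.31% to 7.59% of reads in experiment 1 and 0 in experiment 2, and reads with several alignments were 9.98% to 12.7% and 23.6% to 27.1%. The part of these differences in the siNT levels was not tested, and each siRNA was compared with its own siNT only.

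A direct test of the difference between the siRNAs, fitted over 12 libraries with 1 scaling, called all 10 enzymes, each more negative with siMESH1-CDS. It called 69.7% of the 14154 genes tested. The difference was largest for ALDOA (-4.64, SE 0.806, adjusted p = 0.000565) and GAPDH (-4.04, SE 0.423, adjusted p = 2.33e-05). For LDHA it was -0.26 (SE 0.0981, adjusted p = 0.034), close to the median of -0.243 over all genes in this fit, and it was lost with DESeq2 (-0.14) and in 8 of 12 fits that left out 1 library (-0.28 to -0.17). The median over all genes is not 0 in that fit, so values near -0.243 mark no departure from the bulk of genes. With a correction for the GC content of transcripts, HK2 (-0.40) and ENO1 (-0.11) no longer differed by the test and PFKP turned to 0.80. HDDC3 also differed, by -2.47 (SE 0.588, adjusted p = 0.0037), and was at -0.53 with that correction (adjusted p = 0.309).

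Changes with siMESH1-CDS followed the GC content of transcripts across the whole library. In 10 classes of rising GC content, the median change was 1.10 for the class poorest in GC and -3.69 for the richest. With siMESH1-7002 these medians were 0.14 and -0.10. The enzymes cover much of this range, as LDHA (44.0%) and PGK1 (43.3%) are poor in GC, HK2 (51.2%), GPI (53.6%) and TPI1 (55.9%) lie between, and PFKP, PKM, GAPDH, ENO1 and ALDOA hold 58.1% to 60.1%. Across the 10 genes, change and GC content had a Pearson r of -0.77 with siMESH1-CDS and of -0.10 with siMESH1-7002, a description over genes that share the same libraries.

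**Figure D3:**
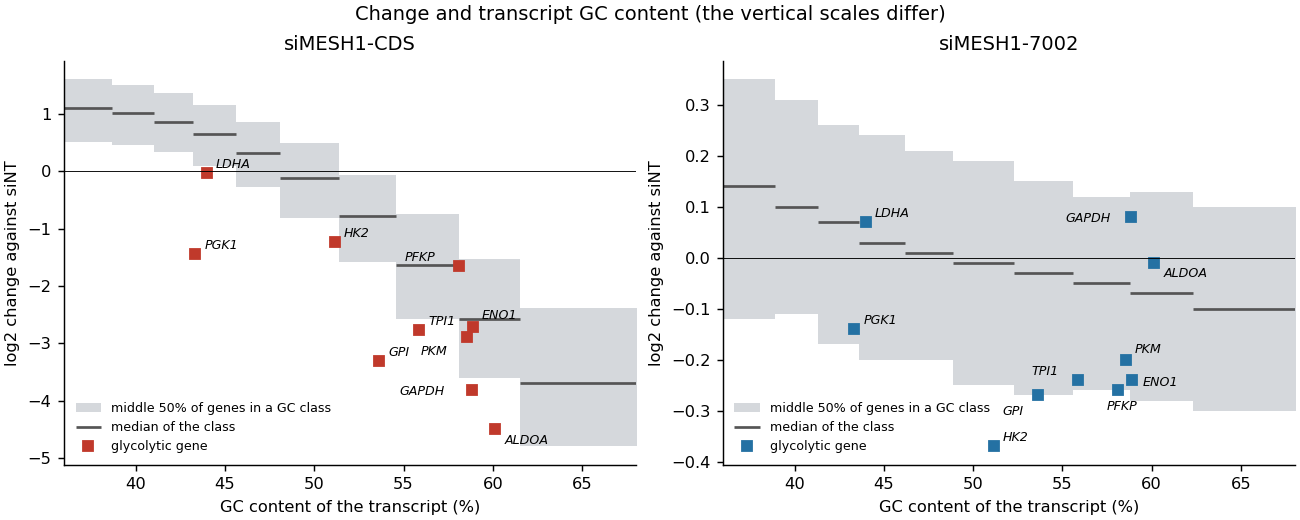
Log2 change against siNT and GC content of the transcript (%), with squares for the glycolytic genes and grey bands for the middle 50% of tested genes in 10 GC classes (line: class median; outer classes run past the axis). With siMESH1-CDS 7 of the 10 genes lie below the band of their own class, among them PGK1 (-1.45, class median 0.65) and LDHA (-0.04, class median 0.65), and ENO1, PKM and PFKP lie inside it; with siMESH1-7002 only HK2 and GPI lie below.

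Set against genes of like GC content, the enzymes spread in a different order. With siMESH1-CDS, the distance to the class median was -2.53 for GPI, -2.10 for PGK1, -1.94 for ALDOA, -1.24 for GAPDH, -1.14 for TPI1, -1.13 for HK2 and -0.70 for LDHA. ENO1 (-0.14 from its class median) and PKM (-0.33) lay within the middle 50% of their class, and PFKP was 0.91 above its class median. By construction 25% of genes lie below that band. With siMESH1-7002, 8 of the 10 lay within their band, and HK2 was furthest from its class median (-0.36).

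When each library was corrected for GC content before the test, the picture changed gene by gene. With siMESH1-CDS, 9 enzymes were lower and PFKP was higher (0.60, SE 0.0657, adjusted p = 0.000448), in a fit that called 26.7% of genes lower and 40.1% higher and had a median over all genes of 0.164. GPI (-2.32), PGK1 (-1.97) and ALDOA (-1.95) then led, TPI1, GAPDH, HK2 and PKM followed at -1.24, -1.28, -0.67 and -0.64, and LDHA (-0.52, adjusted p = 0.000797) passed the test. ENO1 kept -0.29 (SE 0.0684, adjusted p = 0.0107). The split of all calls moved from 4945 higher and 4981 lower to 5376 and 3582.

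With siMESH1-7002 the same correction left 6 enzymes lower and put 3 higher, in a fit with 23.5% of genes lower, 39.4% higher and a median of 0.078. Over all genes the calls moved from 3613 higher and 3622 lower to 5351 and 3182. GAPDH (0.21, adjusted p = 2.36e-05), ALDOA (0.12, adjusted p = 0.00205) and LDHA (0.10, adjusted p = 0.016) were the 3 called higher, of which ALDOA and LDHA lay within 0.04 of the median of all genes. PKM was lost (-0.07, adjusted p = 0.0544). HK2 (-0.28), GPI (-0.15), PFKP (-0.13), PGK1 (-0.13), TPI1 (-0.12) and ENO1 (-0.11) remained lower. GPI, PGK1, HK2, TPI1 and ENO1 were thus lower with each siRNA under both scalings. The share of all genes lower in this way was not computed, and without the correction it was 15.1%. In the fit of all 4 groups, HK2 alone of the enzymes was called lower with siMESH1-7002.

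The shares of isoenzymes compare genes of 1 step within a library and need no scaling between libraries, although they keep any difference in GC content between the isoenzymes. HK2 made up 27% ± 0.868 of reads of HK1 and HK2 with siNT in experiment 1 and 41.6% ± 15.3 with siMESH1-CDS, and 24.7% ± 0.728 and 20.7% ± 0.491 in experiment 2 (SD, n = 3). The wide SD with siMESH1-CDS came with libraries from 30.9% to 59.1%. HK1, the constitutive hexokinase, fell with siMESH1-CDS (260.4 ± 18.3 to 64.3 ± 32.2 CPM, log2 change -2.02, adjusted p = 0.00532) and had a change of -0.04 with siMESH1-7002 (adjusted p = 0.414).

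Phosphofructokinase is a tetramer of platelet, muscle and liver subunits. PFKP rose from 67% ± 0.643 to 75.1% ± 2.3 of the reads of these genes with siMESH1-CDS and went from 57.4% ± 0.338 to 51.3% ± 0.167 with siMESH1-7002. PFKL, the liver subunit, moved the other way, from 8.38% ± 0.541 to 1.2% ± 1.15 and from 31.3% ± 0.189 to 36.7% ± 0.278. In CPM, PFKL fell on the log2 scale with siMESH1-CDS (-4.20, from 31.9 ± 3.38 to 1.73 ± 2.13 CPM, adjusted p = 0.0149) and rose by 0.14 with siMESH1-7002 (adjusted p = 0.0137), and PFKM, the muscle subunit, changed by -1.93 (adjusted p = 0.00407) and -0.01 (adjusted p = 0.872). With the GC correction the change of PFKL with siMESH1-CDS was -1.08 and did not pass (adjusted p = 0.0846).

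ALDOA supplied 96.8% ± 0.366 of aldolase reads with siNT and 93.1% ± 2.53 with siMESH1-CDS, and 94.1% ± 0.272 and 94.2% ± 0.0766 in experiment 2. ENO1 went from 91.7% ± 0.341 to 96.7% ± 0.77 of enolase reads with siMESH1-CDS and from 85.4% ± 0.333 to 82.1% ± 0.414 with siMESH1-7002. ENO2, the enolase of neurons that many tumours express, fell by 3.99 with siMESH1-CDS (adjusted p = 0.00292) and rose by 0.11 with siMESH1-7002 (adjusted p = 0.0429). LDHA went from 75.7% ± 0.334 to 69.3% ± 0.697 of lactate dehydrogenase reads with siMESH1-CDS, where LDHB, the subunit of oxidative tissues, rose from 1032 ± 13.4 to 1385 ± 100.5 CPM (log2 change 0.42, adjusted p = 0.00717). With siMESH1-7002 the LDHA share was 74.5% ± 0.712 and 76.2% ± 0.269. The two-sided exact permutation test of 3 against 3 libraries cannot go below 0.1. This exact test gave p = 0.1 (adjusted p = 0.117 over 14 shares) for all shares except PFKM with siMESH1-CDS and ALDOA with siMESH1-7002 (p = 0.6), so that no share passed.

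**Figure D4:**
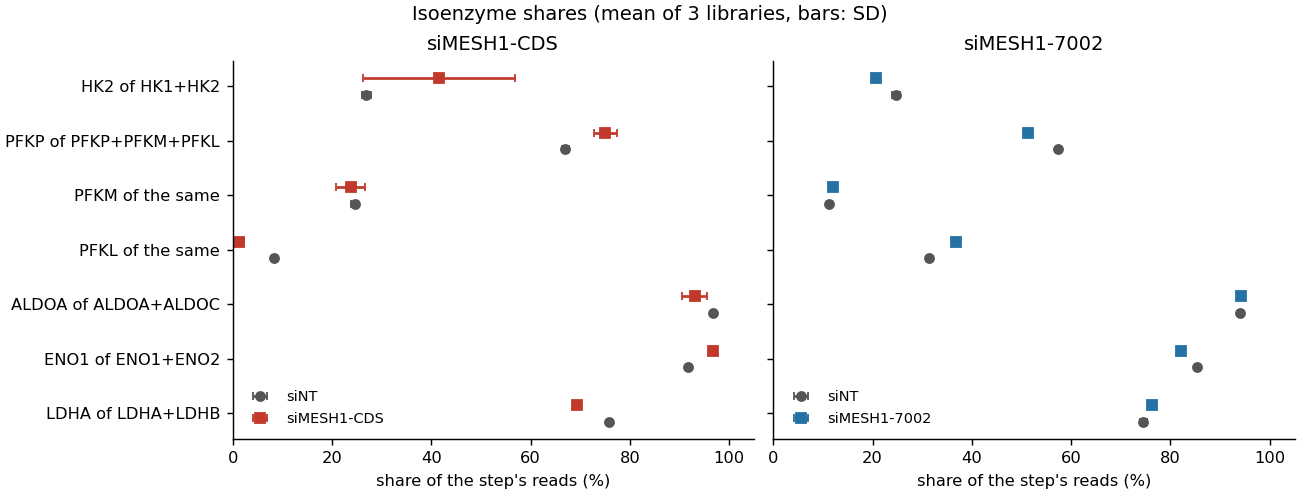
Share (%) of each step's reads held by the named isoenzyme, as mean and SD of 3 libraries; grey circles are siNT and coloured squares are siMESH1. HK2, PFKP and ENO1 lie to the right of siNT with siMESH1-CDS and to its left with siMESH1-7002, and the exact test cannot go below 0.1 for any of them.

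Genes around the pathway were read from 9 lists with 92 entries, of which 91 were in the count tables. The lists covered isoenzymes, transport, the PFKFB enzymes, pyruvate entry, gluconeogenesis, the pentose phosphate branch, glycogen, the glycerol phosphate shuttle and regulators. TIGAR was listed with the PFKFB enzymes but had no entry under that symbol. With siMESH1-CDS, 70 were tested, 25 rose and 30 fell, beside 36.9% and 37.2% of all genes. With siMESH1-7002, 68 were tested, 27 rose and 16 fell, beside 26.6% and 26.7% of all genes. Of the isoenzymes of the same steps, 3 of 12 rose in experiment 2 (PFKL, ENO2 and ADPGK) and the other 9 did not pass. The shares of all genes there were 26.6% higher and 26.7% lower, so the count of rises is near that of all genes. In experiment 1, 8 of 12 fell and 2 rose, beside 37.2% and 36.9% of all genes. PGAM1, the mutase that precedes enolase, went from 45.7 ± 3.15 to 16.1 ± 4.02 CPM with siMESH1-CDS (log2 change -1.50, adjusted p = 0.00159) and had a change of -0.06 with siMESH1-7002 (adjusted p = 0.322).

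Transport showed both directions. SLC2A1, the glucose carrier GLUT1, had 596 ± 26.2 CPM with siNT and 149.9 ± 64.7 with siMESH1-CDS (log2 change -1.99, adjusted p = 0.00226), and 1044 ± 31.8 and 867 ± 21.6 with siMESH1-7002 (-0.27, adjusted p = 3.31e-05). SLC16A3, the lactate exporter MCT4, went from 35.1 ± 5.76 to 0.724 ± 0.725 CPM with siMESH1-CDS (-5.60, adjusted p = 0.0014) and had a change of -0.06 with siMESH1-7002 (adjusted p = 0.297). SLC16A1, the carrier MCT1, rose with each siRNA, by 0.94 (adjusted p = 0.00171) and 0.19 (adjusted p = 0.00188). With the GC correction the changes with siMESH1-CDS were -0.63 for SLC2A1, -2.04 for SLC16A3 and 0.40 for SLC16A1, each still called. The PFKFB enzymes set the level of an activator of phosphofructokinase. All 3 tested fell with siMESH1-CDS (2 with the GC correction), beside 37.2% of all genes (26.7% with the correction). With siMESH1-7002 2 rose, beside 26.6% of all genes, and PFKFB2 did not pass (-0.10, adjusted p = 0.361).

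At the exit to the mitochondria, 8 of 14 genes rose and 2 fell with siMESH1-CDS, beside 36.9% and 37.2% of all genes. With siMESH1-7002, 5 rose and 6 fell, beside 26.6% and 26.7% of all genes. The pyruvate dehydrogenase kinases close this gate by phosphorylating the complex. PDK4 rose with each siRNA from a low level, from 1.16 ± 0.317 to 4.83 ± 1.38 CPM (log2 change 2.06, adjusted p = 0.00223) and from 0.916 ± 0.0927 to 1.81 ± 0.289 (0.99, adjusted p = 0.000577). PDK1 rose by 1.03 (adjusted p = 0.00114) and 0.18 (adjusted p = 0.0238), with overlapping groups in experiment 2. Its 1.03 lay near the median of 1.02 in its GC class. With the GC correction and siMESH1-CDS, PDK1 was at 0.28 and PDK4 at 1.24, each still called. PDK2 fell (-2.22, adjusted p = 0.0389, and -0.87, adjusted p = 2.02e-06), although with the GC correction its change with siMESH1-CDS was 0.26. MPC1, a subunit of the pyruvate carrier, rose by 0.62 and 0.40 (adjusted p = 0.0188 and 0.00195), but the first was 0.11 with the GC correction (adjusted p = 0.509).

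Other branches gave fewer shared calls. Over all genes, 36.9% rose and 37.2% fell with siMESH1-CDS, and 26.6% rose and 26.7% fell with siMESH1-7002. In gluconeogenesis all 4 tested genes fell with siMESH1-CDS, and 1 rose and 2 fell with siMESH1-7002. PCK2, the mitochondrial carboxykinase, fell with each siRNA (-3.25, adjusted p = 0.000473, and -0.37, adjusted p = 0.000234), but with the GC correction its change with siMESH1-CDS was -0.29 (adjusted p = 0.505). G6PC3, a phosphatase of glucose phosphate, also fell (-4.05, adjusted p = 0.0192, and -0.15, adjusted p = 0.0264), but with the GC correction its change with siMESH1-7002 was -0.02 (adjusted p = 0.679). In the pentose phosphate branch 2 of 8 rose and 5 fell with siMESH1-CDS, and 3 of 7 rose with siMESH1-7002 while the other 4 did not pass. RPIA, the ribose phosphate isomerase, rose by 0.46 and 0.21 (adjusted p = 0.0295 and 0.0455).

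Of the glycogen genes, 5 of 10 were higher and 3 lower with siMESH1-CDS, beside 36.9% and 37.2% of all genes. With siMESH1-7002, 5 of 9 were higher and 1 lower, beside 26.6% and 26.7% of all genes. UGP2, which makes the glucose donor of glycogen, rose by 1.35 (adjusted p = 0.00115) and 0.26 (adjusted p = 0.000775). GBE1, the branching enzyme, rose by 1.34 (adjusted p = 0.000529) and 0.18 (adjusted p = 0.0107), and GYG1, the primer protein glycogenin, by 0.41 (adjusted p = 0.00777) and 0.20 (adjusted p = 0.0148). With the GC correction the changes with siMESH1-CDS were 0.60 for UGP2, 0.84 for GBE1 and 0.44 for GYG1, each still called. Of the 2 genes of the glycerol phosphate shuttle, 1 rose with siMESH1-CDS and 1 fell with siMESH1-7002.

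Among the regulators, 5 of 10 rose and 2 fell with siMESH1-CDS, beside 36.9% and 37.2% of all genes. With siMESH1-7002, 6 rose and 3 fell, beside 26.6% and 26.7% of all genes. TXNIP, a brake on glucose uptake, had 141 ± 1.8 CPM with siNT and 492 ± 20.4 with siMESH1-CDS (log2 change 1.81, adjusted p = 0.000178), and 256 ± 18.9 and 511 ± 13.3 with siMESH1-7002 (1.00, adjusted p = 5.49e-11). VHL, whose protein marks hypoxia-inducible factors for destruction and whose product is lost in RCC4, rose by 1.12 (adjusted p = 0.000579) and 0.62 (adjusted p = 3.96e-08) at the transcript level. MYC, an activator of glycolytic genes, fell (-0.27, adjusted p = 0.0282, and -0.26, adjusted p = 0.000421), but its change with siMESH1-CDS was 2.60 with the GC correction. The transcript model behind its GC content has 1365 bases and no 3'UTR, so that corrected value is uncertain.

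Under TMM scaling, HIF1A and EPAS1, which encode hypoxia-inducible factors, were not called lower with either siRNA. HIF1A rose from 77.5 ± 2.5 to 121 ± 26.4 CPM with siMESH1-CDS (log2 change 0.64, adjusted p = 0.014) and from 85.7 ± 3.17 to 100.5 ± 1.5 with siMESH1-7002 (0.23, adjusted p = 0.000827). With the GC correction the first turned to -0.18 and was called lower (adjusted p = 0.0314). EPAS1, which encodes HIF-2 alpha, had 174 ± 8.49 and 187 ± 9.08 CPM in experiment 1 (0.11, adjusted p = 0.279; 1.03 with the GC correction, adjusted p = 0.00851) and rose from 284 ± 6.02 to 415 ± 5.58 in experiment 2 (0.55, adjusted p = 7.3e-09).

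**Figure D5:**
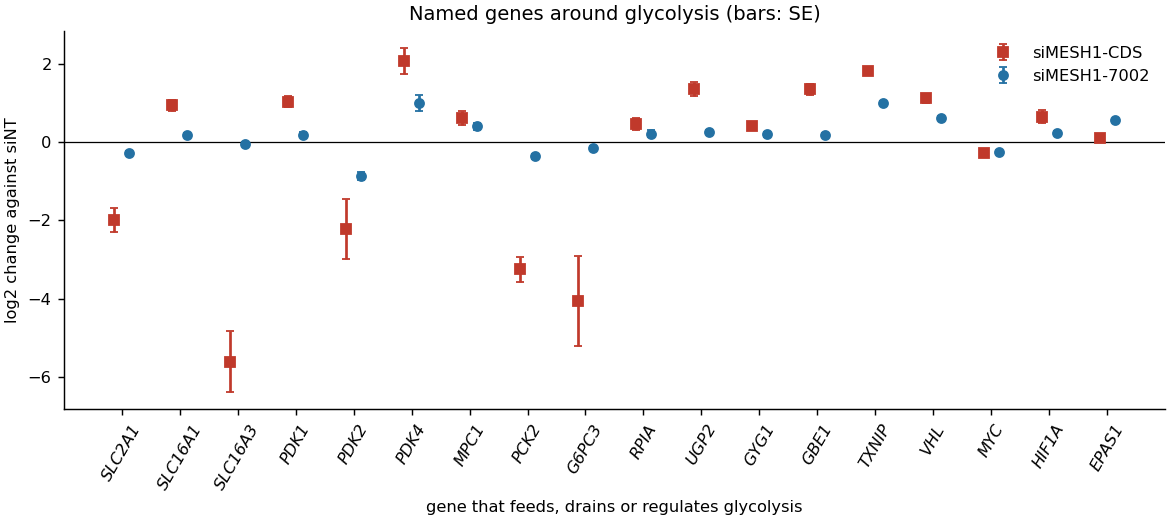
Log2 change against siNT of 18 named genes that feed, drain or regulate glycolysis, with red squares for siMESH1-CDS, blue circles for siMESH1-7002 and bars for SE. SLC2A1, PDK2, PCK2, G6PC3 and MYC lie below 0 with each siRNA, SLC16A1, PDK1, PDK4, MPC1, RPIA, UGP2, GYG1, GBE1, TXNIP, VHL and HIF1A lie above, and SLC16A3 is at -5.60 with siMESH1-CDS and near 0 with siMESH1-7002.

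The promoters of the enzymes share letters that the choice of genes did not use. Windows of 300 bases around RefSeq start sites (250 before, 50 after; GRCh38.p14) were searched on both strands for ACGTG and GCGTG, the core that hypoxia-inducible factors are known to bind. The palindromic form counts once on each strand. A match was present in 15 of 18 windows of the 10 genes (83.3%) and in 17012 of 35116 windows of all genes (48.4%), and every one of the 10 genes had a match in at least 1 window. Examples are shown from LDHA, which did not pass the main test with siMESH1-CDS, and from 4 enzymes that were called lower. With the GC correction LDHA was called lower too (-0.52). The match is in capitals, and each example is read along the gene's own strand.
LDHA, chr11:18394469-18394489, plus strand: cgactcacACGTGggttcccg
PGK1, chrX:78104038-78104058, plus strand: cgtgccggACGTGacaaacgg
ALDOA, chr16:30064378-30064398, plus strand: gggaggccACGTGatccgagt
GAPDH, chr12:6535176-6535196, plus strand: gcggggtcACGTGtcgcagag
GPI, chr19:34364822-34364842, plus strand: tgcctgtaACGTGgaaggtgt
The part of these letters in the enzymes' changes was not tested. Some genes have several windows, and both motifs hold the pair CG, whose frequency in the windows was not compared. Such matches are no evidence of binding in these cells.

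Outside the 10 enzymes, the genes whose CPM ran most like their sum were sought among 6774 genes with at least 10 CPM in every group, by the lower of the Pearson r over the 6 libraries of each experiment. They were PIGS (r = 0.996 in experiment 1 and 0.992 in experiment 2), NPLOC4 (0.999 and 0.990) and CDKN2C (0.996 and 0.989). Each r spans both groups of an experiment, so it mostly carries the difference between siNT and siMESH1.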

How the data were processed

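Poly(A) RNA of 12 RCC4 samples was made into stranded libraries (TruSeq) and read as single ends of 50 bases on an Illumina HiSeq. The authors' processing notes name FastQC, HISAT2, hg19, HTSeq and DESeq2, without versions. The deposited count files hold whole numbers of reads per gene from HTSeq, not normalized. The summary lines at the foot of each file did not enter library sizes or tests. Reads overlapping no annotated gene made up 14.7% to 15.5% with siNT and 18.4% to 20.8% with siMESH1-CDS in experiment 1, and 10.0% to 12.2% in experiment 2. Unaligned reads made up 5.31% to 16.15% with siNT and 2.51% to 3.21% with siMESH1-CDS in experiment 1, and 3.45% to 3.815% in experiment 2. The part of these group differences in the changes was not tested. A deposited table of the authors' DESeq2 comparison for each siRNA, with mean normalized counts, log2 fold changes and p-values, was not used.

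Samples were grouped by label. Counts were scaled with TMM, filtered with filterByExpr and tested per experiment with the quasi-likelihood test of edgeR 4.0.16 (R 4.3.3), with Benjamini-Hochberg adjustment over all genes tested and a threshold of 0.05. SE was taken as the size of the log2 change divided by the square root of its F value in that test. The difference between the siRNAs was a contrast over 12 libraries. For the GC correction, each library's log2 CPM (prior count 1) was smoothed on transcript GC content (lowess, span 0.3) and used as an offset. GC content, lengths, coordinates and 3'UTRs came from GENCODE 29 on GRCh38 by symbol, where 21257 symbols had an entry, 1083 had one under a former symbol and 1370 had none, and promoters came from RefSeq (GRCh38.p14). These differ from the hg19 of the counts, so no position was carried between them. Exact permutation tests were two-sided. Alternatives were DESeq2 1.42.0, other scalings and filters, a fit of all 4 groups, a lane covariate, a replicate block, and leaving out each library. The scripts were tested on simulated data.

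The 10 members and all gene lists were chosen with earlier results of these data known. Besides the members, HDDC3 and 12 fixed genes, up to 3 genes per list were named, those with a mean of at least 1 CPM called the same way in both experiments with the largest smaller change, plus the 3 genes most like the summed members. The markers of 2 cell type lists were also read.

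Errors are SDs between libraries or SEs derived from the test of the fitted change, and intervals of counting error are not given.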

Additional observations from a re-analysis of the deposited data

Results flagged for a closer look

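Changes with siMESH1-CDS and siMESH1-7002 differed by the edgeR contrast over 12 libraries (adjusted p under 0.05) for all 10 enzymes. In log2 units, siMESH1-CDS minus siMESH1-7002, the difference was -1.02 for HK2, -3.19 for GPI, -1.55 for PFKP, -4.64 for ALDOA and -2.68 for TPI1. For GAPDH it was -4.04, for PGK1 -1.45, for ENO1 -2.62, for PKM -2.84 and for LDHA -0.26. HDDC3 differed by -2.47. With the GC correction, PFKP turned to 0.80 and HK2, ENO1 and HDDC3 did not pass.

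Among the other isoenzymes and PGAM1, the difference was -2.12 for HK1, -2.07 for PFKM, -4.49 for PFKL, -3.13 for ALDOC, -4.24 for ENO2, 0.33 for LDHB and -1.60 for PGAM1. For transport and pyruvate use it was -1.87 for SLC2A1, -5.68 for SLC16A3, 0.60 for SLC16A1, 0.70 for PDK1, -3.03 for PCK2 and -4.04 for G6PC3. For glycogen genes and regulators it was 0.94 for UGP2, 1.01 for GBE1, 0.66 for TXNIP, 0.35 for VHL and -0.59 for EPAS1. The siRNAs also differ in experiment, lanes and siNT libraries, which cannot be told apart from the siRNA in this contrast. Groups of 3 libraries were not examined for single outliers.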

How the results depend on the processing

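With siMESH1-CDS, 9 or 10 enzymes were called under every alternative and after leaving out each library. Under the GC correction, with or without the replicate block, 1 enzyme was called higher with siMESH1-CDS (PFKP, 0.60) and 3 with siMESH1-7002 (ALDOA was at 0.12). Under the GC correction without a block, 1 was called higher in the difference between siRNAs (PFKP, 0.80). With siMESH1-7002, the fit of all 4 groups called 1 enzyme, lower, and 2582 genes in place of 7235. GAPDH was the 1 enzyme called higher with no filter on low counts and with the replicate block. Leaving out each library in turn gave 0 to 1 enzymes called higher, the 1 being LDHA without siNT-7002 replicate 3, and put ALDOA at -0.05 to 0.01; with no filter ALDOA was at 0.00. LDHA no longer differed between siRNAs without siNT-CDS replicate 1 or 3, siMESH1-CDS replicate 1 or 3, siNT-7002 replicate 1 or 2, or siMESH1-7002 replicate 1 or 2.

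The GC correction turned HK1 (0.08), PFKM (0.09), ALDOC (0.09), PGAM1 (0.05) and SLC16A3 (0.08) with siMESH1-7002, and HIF1A (-0.18), PDK2 (0.26) and MYC (2.60) with siMESH1-CDS. It turned the differences of HIF1A (-0.44), EPAS1 (0.39), PDK2 (1.12), MPC1 (-0.38) and MYC (2.79), and left HDDC3 at -0.53, not called. The corrected MYC values rest on a transcript model without a 3'UTR. Scaling by library size turned EPAS1 with siMESH1-CDS (-0.16) and the differences of MPC1 (-0.03), RPIA (-0.01) and GYG1 (-0.05), and the fit of all 4 groups put EPAS1 at -0.05. Counted per kilobase, the LDHA share changed by -7.5 points with siMESH1-CDS and the HK2 share by -3.02 points with siMESH1-7002. Apart from these constructions, the causes were not tested. Over the 9 pathway lists together, counts stayed within 1.5 times under the GC correction and DESeq2, but single lists moved more. With the GC correction, calls went from 3 to 6 higher for the isoenzymes and for the pentose phosphate branch and from 2 to 1 lower for gluconeogenesis with siMESH1-7002, and from 5 to 3 lower for the pentose phosphate branch and from 2 to 5 lower for pyruvate entry with siMESH1-CDS. With DESeq2, the pentose phosphate branch went from 2 to 1 higher with siMESH1-CDS.

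Deviations of same-numbered libraries had correlations of -0.0475 to 0.224 in experiment 1 and -0.0755 to 0.0415 in experiment 2. In neither experiment did every library correlate best with its own number. With 3 libraries per group this cannot exclude that same-numbered cultures were handled together, so a fit with a replicate block is given beside the main one. With the replicate block, 9 enzymes were called with siMESH1-CDS, 8 with siMESH1-7002 and 9 in the difference. HDDC3 with siMESH1-CDS was removed by the filter of 10 reads in every library and has no value there. The spread of the siMESH1-CDS libraries limits the precision of every change in experiment 1.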

Other observations

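A few other genes around the pathway are named here after their values were seen, and the difference between the siRNAs is not given for them. MPC2, PC and PFKFB3 were called in opposite directions. The 3'UTR of MPC2 held 1 match to the seed of siMESH1-7002, and its part in the fall of MPC2 with that siRNA was not tested. MPC2, the partner of MPC1 in the mitochondrial pyruvate carrier, had 129 CPM with siNT and 334 with siMESH1-CDS (log2 change 1.37, adjusted p = 0.000832), and 243 and 57.4 CPM with siMESH1-7002 (-2.08, adjusted p = 2.16e-14), and both values kept their sign and call with the GC correction (0.71 and -2.08). PC, the carboxylase that feeds pyruvate into gluconeogenesis, changed by -5.00 (adjusted p = 0.00176) and 0.81 (adjusted p = 5.87e-09). PFKFB3, the bifunctional enzyme that raises phosphofructokinase activity, changed by -1.41 (adjusted p = 0.000315) and 0.24 (adjusted p = 0.000231), although the first was 0.34 and not called with the GC correction. SLC2A3, the glucose carrier GLUT3, had a change of 0.11 that did not pass with siMESH1-CDS (adjusted p = 0.411) and rose by 1.22 with siMESH1-7002 (adjusted p = 3.72e-11).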
